A study of Neurospora crassa with 6 samples.

Results

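The genes described here lie within 200 kb of either end of linkage group I of the filamentous fungus Neurospora crassa. They were chosen by position alone. Of the 9757 genes in the deposited table, 95 had their whole counted span inside these windows, and 3 were left out because their symbols belong to other gene families (gh3-2, cyt-21 and crp-7). The DNA repair gene phr stayed in, since its symbol was not among the listed first letters of those families. The remaining 92 comprised 48 at the left end and 44 at the right end, where the left end is base 1 and the right end is base 9772118, the last base counted for any gene of the linkage group. Just inside the limit lay NCU08081 (whole span within 198 kb of the left end, not tested) and pcb-2 (198 kb, right, log2 fold change -0.15). Just outside lay NCU08083 (209 kb, left, 1.57, not called, edgeR adjusted p = 0.0513) and NCU08604 (204 kb, right, -0.52, called lower, edgeR adjusted p = 0.0340).

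RNA sequencing compared mycelium of a cac-1, suz-12 double knockout (3 libraries) with mycelium of a cac-1 knockout (3 libraries). Both strains carry the cac-1 deletion and differ, by their labels, in suz-12, and no wild-type strain was analysed here. Both were grown overnight in Vogel's medium, a minimal medium, here with 1.5% sucrose. The labels do not say whether the 3 libraries of a strain came from separate cultures, so p-values measure the spread between these libraries, which may be technical.

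Polycomb repressive complex 2 methylates lysine 27 of histone H3, and SUZ12 is one of its core subunits. In N. crassa this mark forms facultative heterochromatin over large blocks of genes, many of them next to chromosome ends, and genes inside such blocks are mostly silent or low. CAC-1 is the large subunit of chromatin assembly factor 1, which places histones H3 and H4 on newly copied DNA. The comparison therefore asks what genes near the ends of linkage group I do when the Polycomb subunit is removed from a strain that already lacks the histone chaperone.

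The libraries held 18993719 to 28327383 counts in the double knockout and 7989915 to 25315143 in cac-1. No library had a count on cac-1. The locus NCU05460, taken as suz-12 from general knowledge a name that neither the table nor the RefSeq table gives, had 54, 70 and 55 counts in the double knockout, against 74, 207 and 197 counts in cac-1. Scaled to library size these were 2.68 ± 0.4998 CPM in the double knockout and 8.39 ± 0.918 CPM in cac-1 (SD, n = 3 each), and edgeR gave a change of -1.65 on the log2 scale (edgeR adjusted p = 8.20e-05). Reads thus remained on this locus in every library labelled as double knockout, which goes against a deletion of its whole counted span, unlike cac-1 with no count. Where on the locus these reads lie was not analysed here, and the name double knockout is used as the label gives it. Of 11 genes listed for Polycomb, CAF-1 and other heterochromatin factors 9 were found and 8 tested, of which 2 were lower, NCU05460 and the CAF-1 subunit gene cac-3 (log2 fold change -0.84). The other 6 (set-7, cac-2, hda-1, dim-5, hpo and dim-2) were not called, with log2 fold changes from -0.48 to 0.20. The mating-type gene matA-1, an interior gene of the same linkage group, had 1193, 1387 and 1000 counts in the double knockout and 0 in every cac-1 library, so the strains also differ in mating type. Library names run in consecutive numbers within each strain. Strain background or library preparation and the labelled suz-12 knockout thus cannot be told apart. The hyphal marker genes hex-1, chs-1, gel-1 and act were all detected, with a summed 3330 to 3774 normalised counts (CPM, scaled to library size) in the double knockout and 2409 to 2725 CPM in cac-1, and hex-1 alone of the 4 rose. The 5 conidial marker genes found (con-6, con-8, con-10, con-13 and eas) summed to 136 to 164 CPM in the double knockout and 183 to 331 CPM in cac-1, with con-6 higher, con-8 lower and none at 0. The part of these marker changes in the results was not tested.

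Of the 92 genes, 84 had enough counts to be tested, and 30 passed an edgeR adjusted p of 0.05, the threshold for a call throughout (28.1% of all genes tested were called). Higher in the double knockout were 26 of the 84 (31.0%), where 16.1% of all 9148 genes tested were called higher. Lower were 4 of the 84 (4.76%), where 11.9% of all genes were called lower. By 2-fold or more, 17 were higher and 1 lower, against backgrounds of 8.46% and 2.89%, and 6 were higher by 8-fold or more (background 1.65%). Every double-knockout library lay above every cac-1 library for 35 of the 84 genes and below for 8, where 22.4% of all genes tested lay above and 19.8% below. The median log2 fold change was 0.29 over these genes and -0.00089 over all genes tested. In bulk RNA, fewer cells with a transcript and less RNA per cell cannot be told apart.

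Some of these genes were so low in cac-1 that they could be tested only through the double knockout. Among them NCU10501, NCU08639 and NCU10027 had no cac-1 library above the 0.434 CPM that the filter asks of 3 libraries. All 3 were called higher, as were 64 of 67 such genes over all genes tested. All 3 are among the 6 genes higher by 8-fold or more. NCU08074 (0, 19 and 22 counts in cac-1) and NCU08079 (4, 4 and 4 counts in cac-1) had some but not all cac-1 libraries above that level. They too passed the filter only with double-knockout libraries, and they were called higher. The same held for NCU11134 and NCU08617, which were not called. Among the 77 genes with every cac-1 library above that level, 21 (27.3%) were higher and 4 lower, while 15.02% of all genes of that kind were higher. With libraries scaled to their totals, which moved the median of all genes to -0.20 on the log2 scale, 19 of the 84 were higher and 8 lower. In that scaling 1038 of all 9148 genes tested were higher and 1861 lower. Leaving out single libraries also moved the number of lower genes. There were 2 without cac-1 replicate 1, 2 or 3, 1 without double-knockout replicate 1 or 3, and 5 without double-knockout replicate 2. The number of lower genes over all genes tested moved as well, from 1093 with all libraries. It was 764, 821 and 1119 without cac-1 replicates 1, 2 and 3. Without double-knockout replicates 1, 2 and 3 it was 650, 1139 and 695.

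At the left end 15 of 43 tested genes were higher (34.9%) and 4 lower (9.30%). At the right end 11 of 41 were higher (26.8%) and 0 lower. Over all genes tested, 16.1% were higher and 11.9% lower. In edgeR 3 right-end genes (NCU08609, NCU08614 and phr) were lower at an unadjusted p under 0.05, and DESeq2 called 1 right-end gene lower. The median log2 fold change was 0.34 at the left end and 0.12 at the right end. In each library the deviation of log2 CPM from the cac-1 mean was taken for every tested gene, and its median over the left end was 0.46, 0.23 and 0.43 in double-knockout replicates 1, 2 and 3, against -0.039, 0.056 and 0.046 in cac-1 replicates 1, 2 and 3. At the right end the medians were 0.079, 0.22 and 0.077 in the double knockout, against 0.027, -0.013 and 0.010 in cac-1. The strains did not overlap at either end. The same median over all genes tested lay between 0.0061 and 0.019 in the double knockout and between -0.0076 and 0.0031 in cac-1, where the strains did not overlap either. On library totals the median of the right end was below 0, at -0.076. The difference between the ends was not tested.

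Summed over its genes, the left end had 1770, 1481 and 1858 CPM in double-knockout replicates 1, 2 and 3, against 1271, 1332 and 1304 CPM in cac-1 replicates 1, 2 and 3. The right end had 3108, 2992 and 3076 CPM in the double knockout, against 2173, 2160 and 2256 CPM in cac-1. All double-knockout sums were above all cac-1 sums, with a ratio of the means of 1.31 at the left end and 1.39 at the right end. Without the gene of highest mean CPM at each end, NCU08055 at the left and NCU08620 at the right, the ratios were 1.49 and 1.68. The rise of 1 gene equalled 88.7% of the net rise of the sum at the right end (NCU10031) and 58.0% at the left end (NCU09906). These are shares of a net change, in which falls of other genes offset part of the rises. Without NCU10031 the right end summed to 2067 to 2358 CPM in the double knockout and 2114 to 2140 CPM in cac-1, so that the strains overlapped, with a ratio of 1.05. Without NCU09906 the left end summed to 1231 to 1407 CPM in the double knockout and 1145 to 1226 CPM in cac-1, without overlap and with a ratio of 1.14. Leaving out these genes was chosen after seeing the data.

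**Figure D1:**
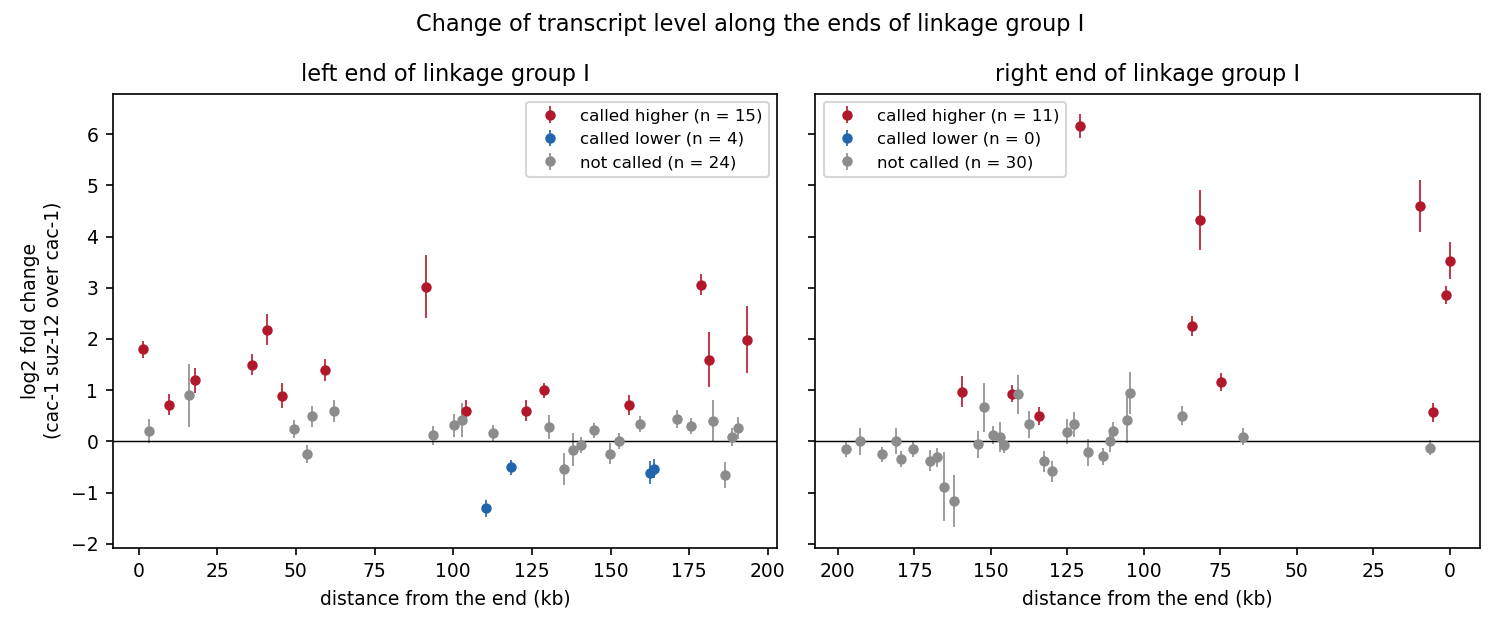
Log2 fold change (cac-1 suz-12 over cac-1) of the 84 tested genes against distance from the end in kb, with the left end in the left panel and the right end in the right panel, whose axis runs toward the end. Points are genes, bars are the standard error of the edgeR fit, red marks genes called higher (15 left, 11 right), blue genes called lower (4 left) and grey genes not called. At the right end the large rises lie in the outermost 100 kb, apart from NCU08630 at 120.7 kb.

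The change was mapped along each end in 50 kb steps. For comparison, 16.1% of all genes tested were called higher and 11.9% lower. At the right end 7 of 10 tested genes in the outermost 100 kb were higher, and 4 of 31 in the next 100 kb. The medians of these stretches were 1.71 and -0.00097 on the log2 scale. From 200 to 400 kb, outside the windows, 8 of 43 genes were higher and 5 lower, with a median of -0.043. At the left end 8 of 15 tested genes were higher in the outermost 100 kb and 7 of 28 in the next, with medians of 0.89 and 0.27. In the outermost 100 kb, NCU10027 and NCU08639 at the right and NCU10501 at the left, all higher, were tested only through the double knockout. So was NCU11134 at the left, not called. In the next 100 kb this held for NCU08074 and NCU08079 at the left, which were higher, and for NCU08617 at the right, not called. These genes are part of the counts and medians above. At the left arm higher calls went on beyond the window. From 200 to 400 kb 17 of 47 genes were higher and 3 lower, with a median of 0.43. These included a stretch of 8 neighbouring tested genes from NCU08095 to NCU08102 (240862 to 263387), all called higher.

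**Figure D2:**
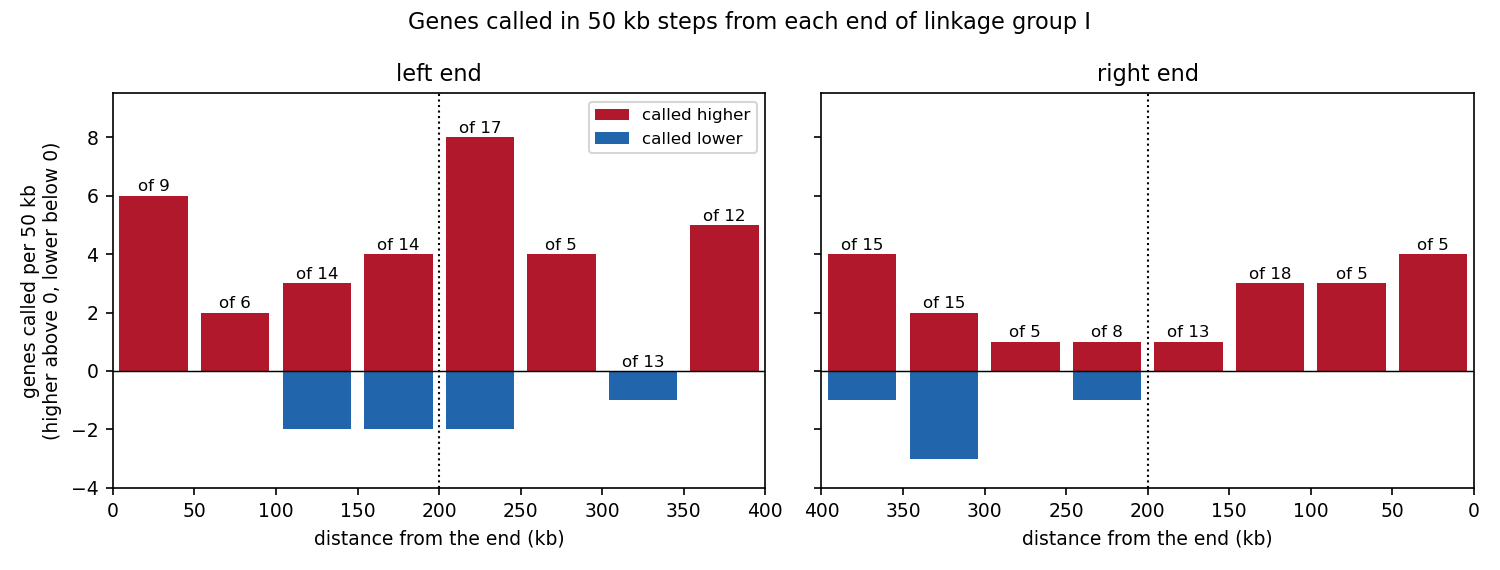
Number of genes called higher (red, above 0) and lower (blue, below 0) in steps of 50 kb from each end, with the number tested written above each bar and a dotted line at the 200 kb limit. The right end has 4 of 5, 3 of 5, 3 of 18 and 1 of 13 genes higher going inward to 200 kb, while the left end has 6 of 9, 2 of 6, 3 of 14 and 4 of 14 and then 8 of 17 beyond the limit.

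The outermost gene of the right end, NCU10031 (linkage group I, 9771034 to 9772118, minus strand, 3 counted intervals), had 868, 635 and 1009 CPM in the double knockout, against 53.4, 46.7 and 116 CPM in cac-1. The strains did not overlap, and replicate 3 was the highest library in each. Its mean was 837 ± 189 CPM in the double knockout and 72.1 ± 38.4 CPM in cac-1 (SD, n = 3 each), which is a log2 fold change of 3.53 (edgeR adjusted p = 9.71e-05, SE 0.37), or 11.6-fold. Per length, as CPM per kb of counted sequence (RPKM), its level of 886 RPKM in the double knockout was second at the right end to that of NCU08620, at 1949 RPKM.

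Its neighbour NCU10030 (9768324 to 9770870, plus strand, 4 intervals) had 54.5, 51.0 and 51.8 CPM in the double knockout, against 5.62, 7.71 and 7.97 CPM in cac-1. Its libraries were close within each strain, and the log2 fold change was 2.86 (edgeR adjusted p = 3.33e-09, SE 0.18), or 7.24-fold. The third gene inward, NCU10029 (9766144 to 9766861, minus strand), had 37.1, 33.8 and 29.2 CPM in the double knockout and 22.5, 27.5 and 17.3 CPM in cac-1, a smaller rise of 0.57 (edgeR adjusted p = 0.0281, SE 0.18). That call was lost on library totals and without cac-1 replicate 1 or 3 or double-knockout replicate 1, with adjusted p-values between 0.00666 and 0.188 over its alternatives. These 3 genes formed an unbroken run of higher calls over 5.975 kb.

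The next gene, NCU10028, was not called, at 120 CPM in the double knockout and 130 CPM in cac-1. Beyond it NCU10027 (9759597 to 9762612, plus strand), named after its values were seen, had 63, 118 and 86 counts in the double knockout, against 2, 2 and 5 counts in cac-1. Its log2 fold change was 4.60 (edgeR adjusted p = 2.89e-06, SE 0.501). Neighbouring genes at this end thus ranged from no call to one of the largest rises. Inward of NCU10027 no gene was counted over 55.1 kb, the widest gap of the right window.

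On the inner side of that gap, NCU08642 was not called, at 24.8 CPM in the double knockout and 23.4 CPM in cac-1. Then came 3 neighbouring tested genes that were all higher, over 11.05 kb. NCU08641 (9695243 to 9697399, plus strand, 1 interval) had 89.5, 106 and 137 CPM in the double knockout, against 48.3, 47.0 and 53.6 CPM in cac-1, a log2 fold change of 1.16 (edgeR adjusted p = 7.11e-05, SE 0.17). NCU08638 (9686351 to 9687927, plus strand, 16 intervals) had 23.6, 32.9 and 33.0 CPM in the double knockout, against 6.68, 6.26 and 5.88 CPM in cac-1, a log2 fold change of 2.26 (edgeR adjusted p = 1.58e-07, SE 0.19). Between them lay NCU08639, also named after its values were seen, with 58, 58 and 30 counts in the double knockout and 0, 4 and 2 counts in cac-1 (log2 fold change 4.32, edgeR adjusted p = 3.18e-05, SE 0.59). All 3 were without overlap between the strains. The low gene NCU08640, within the same stretch, could not be tested.

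The largest rise of all 84 tested genes was that of NCU08630 (9650180 to 9651390, minus strand, 5 intervals), 120.7 kb from the right end. In CPM it had 50.5, 45.4 and 55.4 in the double knockout, against 0.937, 0.569 and 0.741 CPM in cac-1, where the underlying counts were 8, 16 and 16. The libraries of each strain lay close together and far from those of the other strain. The log2 fold change was 6.16 (edgeR adjusted p = 1.84e-11, SE 0.23), or 71.5-fold, and the gene also had the smallest p of the right end. Its neighbours were not called. NCU08629 on one side had a log2 fold change of 0.33 (edgeR adjusted p = 0.348) and NCU08631 on the other -0.21 (edgeR adjusted p = 0.589), so this rise was of a single gene. The 3 further higher genes of the right end, NCU08615, NCU08621 and NCU08625, lay 134 to 159 kb from the end and rose by 0.97, 0.93 and 0.49 on the log2 scale.

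**Figure D3:**
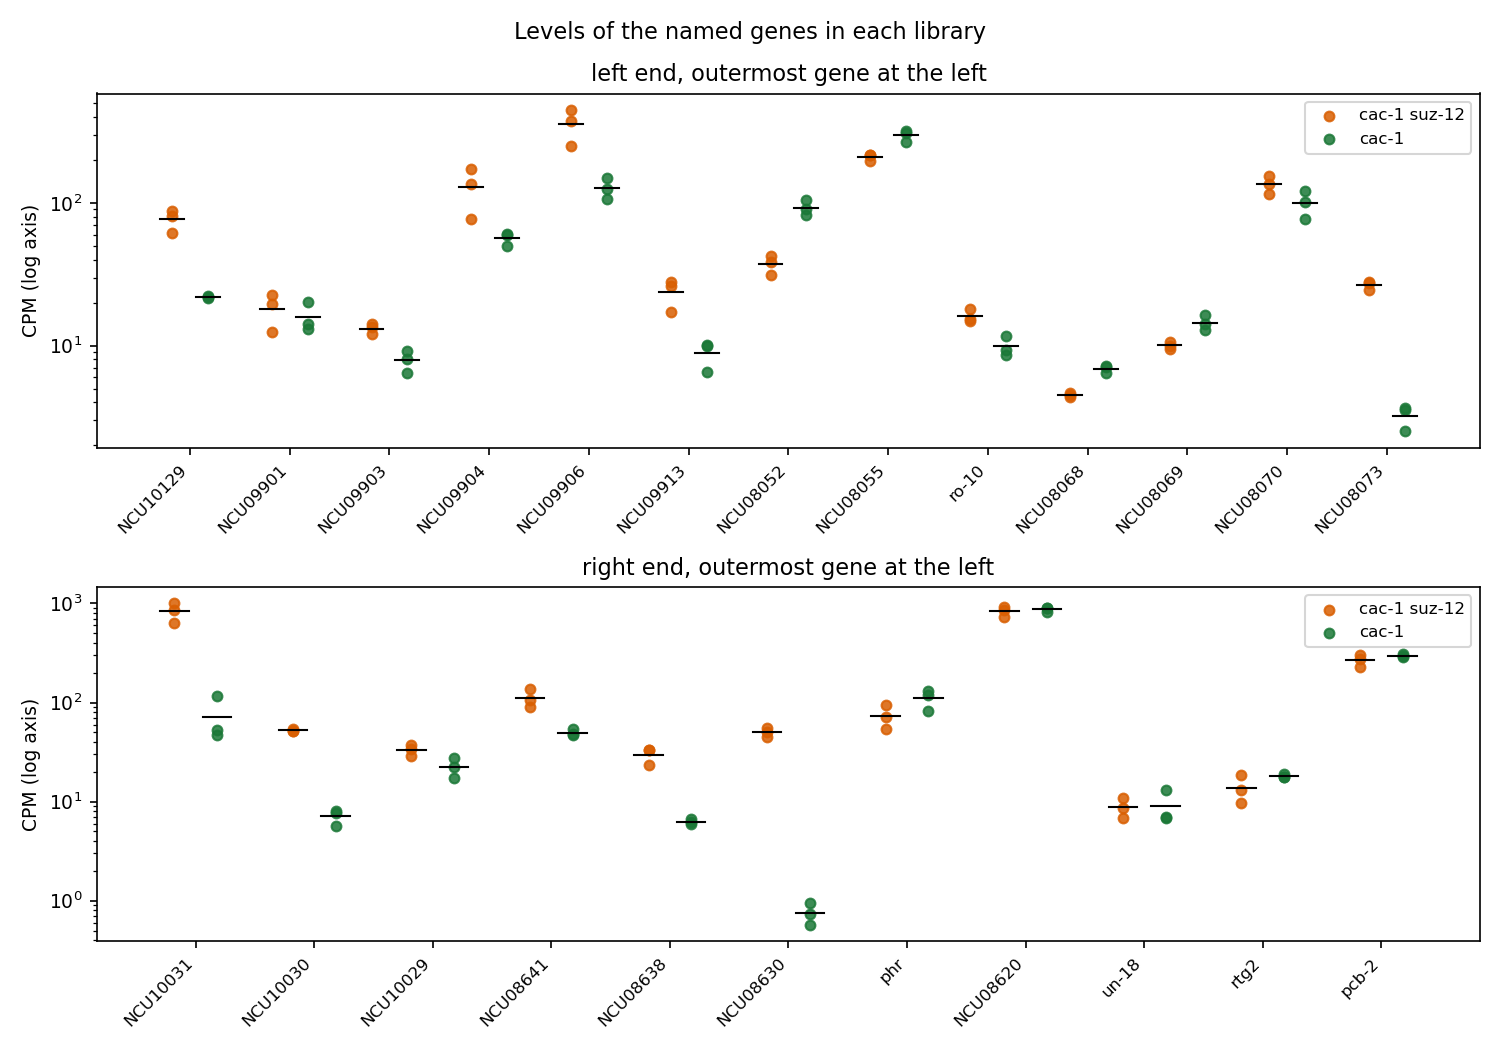
Level of each of the 24 genes named by rule in every library, in CPM on a log axis, with the left end above and the right end below and genes ordered inward from the outermost. Orange points are the 3 cac-1 suz-12 libraries, green points the 3 cac-1 libraries and short lines their means. NCU10031, NCU10030, NCU08638 and NCU08630 at the right end and NCU08073 at the left end show the widest separation.

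The outermost gene of the left end, NCU10129 (linkage group I, 1436 to 1990, minus strand, 2 intervals), had 87.1, 61.3 and 81.2 CPM in the double knockout, against 22.4, 21.9 and 21.6 CPM in cac-1. The cac-1 libraries were nearly equal and all lay below the double knockout, and the log2 fold change was 1.80 (edgeR adjusted p = 3.95e-07, SE 0.16), or 3.48-fold. The second gene, NCU09901 (3386 to 4454, plus strand), overlapped between the strains, with 19.5, 12.4 and 22.7 CPM in the double knockout and 14.2, 12.97 and 20.1 CPM in cac-1 (log2 fold change 0.20, edgeR adjusted p = 0.566). The third, NCU09903 (9604 to 12992, plus strand), had 13.5, 14.1 and 11.98 CPM in the double knockout and 6.44, 9.17 and 8.11 CPM in cac-1, a log2 fold change of 0.72 (edgeR adjusted p = 0.0123, SE 0.20). Its call was lost on library totals and without cac-1 replicate 1 or double-knockout replicate 1, with adjusted p-values between 0.00567 and 0.0779 over its alternatives.

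Further in, 4 neighbouring tested genes from NCU09904 to NCU09909 were all higher, over 29.9 kb. They were the longest run of calls in either window. NCU09906 (36099 to 38857, plus strand, 3 intervals) had 377, 250 and 451 CPM in the double knockout, against 125, 106 and 150 CPM in cac-1, a log2 fold change of 1.50 (edgeR adjusted p = 5.81e-05, SE 0.21). NCU09904 (17872 to 19368, plus strand) had 137, 77.4 and 173 CPM in the double knockout, against 59.3, 49.5 and 60.9 CPM in cac-1, a log2 fold change of 1.19 (edgeR adjusted p = 0.00239, SE 0.24). In both genes double-knockout replicate 2 was the lowest of its strain, yet above every cac-1 library. NCU09907 and NCU09909 completed the run at 2.18 and 0.89 on the log2 scale, and NCU09908 between them had too few counts to be tested.

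NCU09913 (59176 to 60618, plus strand, 1 interval) had 26.1, 17.3 and 27.7 CPM in the double knockout, against 6.56, 9.95 and 10.1 CPM in cac-1, a log2 fold change of 1.39 (edgeR adjusted p = 1.44e-04, SE 0.22). After it no gene was counted over 28.5 kb, the widest gap of the left window. The first gene past this gap, NCU10501, was near silent in cac-1 and rose, with 25, 55 and 20 counts in the double knockout and 0, 4 and 6 counts in cac-1.

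The largest rise of the left end lay far inside the window, 179 kb from the end. NCU08073 (178614 to 180167, minus strand, 1 interval) had 27.8, 24.7 and 27.4 CPM in the double knockout, against 3.51, 3.63 and 2.50 CPM in cac-1. The strains were far apart, with a log2 fold change of 3.06 (edgeR adjusted p = 9.00e-09, SE 0.20), or 8.34-fold, the smallest p of the left end. Its inner neighbour NCU08074 was higher by 1.60 on the log2 scale (edgeR adjusted p = 0.0366, SE 0.54). This low gene had 58, 58 and 24 counts in the double knockout and 0, 19 and 22 counts in cac-1. The outer neighbour of NCU08073, NCU08072, at 78.4 CPM in the double knockout and 63.9 CPM in cac-1, was not called. The 5 other higher genes of this end not yet given, NCU08051, NCU08056, NCU08057, NCU08079 and ro-10, rose by 0.60 to 1.99 on the log2 scale. The largest of these values is that of NCU08079 (SE 0.65), with 14, 21 and 23 counts in the double knockout and 4, 4 and 4 counts in cac-1.

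The 4 lower genes of the windows were all at the left end, between 110 and 164 kb from it. NCU08052 (110408 to 111669, plus strand, 3 intervals) fell to 38.8, 31.4 and 42.2 CPM in the double knockout, against 82.7, 104 and 91.1 CPM in cac-1, without overlap. Its log2 fold change was -1.31 (edgeR adjusted p = 1.08e-05, SE 0.16). NCU08055 (118357 to 119016, plus strand), the most abundant gene of the left end per length in cac-1, had 216, 215 and 198 CPM in the double knockout, against 311, 319 and 266 CPM in cac-1 (log2 fold change -0.51, edgeR adjusted p = 0.0180, SE 0.15). The neighbours NCU08068 (162590 to 163174) and NCU08069 (163963 to 165843) fell by 0.61 (edgeR adjusted p = 0.0495) and 0.53 (edgeR adjusted p = 0.0391) on the log2 scale.

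Of these, NCU08052 alone was called in every alternative. The NCU08055 call was lost without cac-1 replicate 1 or 2 or double-knockout replicate 1 or 3 (adjusted p from 0.00309 to 0.0694 over its alternatives). The NCU08068 call was lost without any 1 of the 6 libraries and under both other filters on low counts (0.0149 to 0.142), and the NCU08069 call was lost without any 1 library except cac-1 replicate 1 (0.00989 to 0.146).

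Among the 92 genes 5 had symbols of their own. The ropy gene ro-10 (155789 to 156512, plus strand), one of a class named for mutants with curled hyphae and disturbed nuclear distribution, had 17.9, 14.8 and 15.4 CPM in the double knockout, against 11.7, 9.38 and 8.62 CPM in cac-1. Its log2 fold change was 0.71 (edgeR adjusted p = 0.00981, SE 0.19), and the call was lost on library totals and without double-knockout replicate 1 (adjusted p from 0.00395 to 0.0679 over its alternatives). The other 4 lay at the right end, and none was called. The photolyase gene phr (9640055 to 9641977, minus strand), whose product repairs ultraviolet damage in DNA with the energy of light, had 71.4, 94.7 and 54.5 CPM in the double knockout and 118, 82.4 and 132 CPM in cac-1. These libraries overlapped, and the change of -0.59 (edgeR adjusted p = 0.0510, SE 0.21) missed the threshold narrowly. It was called in 6 alternatives, namely DESeq2, both other scalings, no filter, and without cac-1 replicate 2 or double-knockout replicate 2, and its adjusted p ran from 0.00821 to 0.186.

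The gene un-18 (9614263 to 9618040, minus strand), which encodes a large subunit of RNA polymerase I, had 8.68, 10.9 and 6.76 CPM in the double knockout and 7.03, 13.2 and 6.86 CPM in cac-1 (log2 fold change -0.059, edgeR adjusted p = 0.895). The gene rtg2, named after a yeast gene of signalling from mitochondria to the nucleus, stood at 13.8 ± 4.37 CPM in the double knockout and 18.1 ± 0.679 CPM in cac-1 (SD, n = 3 each, edgeR adjusted p = 0.196), and was called lower when double-knockout replicate 2 was left out (edgeR adjusted p = 0.0259, range 0.0259 to 0.575). The gene pcb-2 stood at 267 ± 36.1 CPM in the double knockout and 297 ± 12.9 CPM in cac-1 (SD, n = 3 each, edgeR adjusted p = 0.505).

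The genes of high level included several without a call. NCU08620 (9625843 to 9626557, minus strand) had the highest level per length of the right end, with 913, 867 and 729 CPM in the double knockout and 822, 906 and 895 CPM in cac-1 (edgeR adjusted p = 0.797). NCU08070 (171263 to 172864, minus strand), high at the left end, had 135, 116 and 154 CPM in the double knockout and 102, 76.7 and 120 CPM in cac-1 (log2 fold change 0.44, edgeR adjusted p = 0.0763, SE 0.18). It was called with a replicate block (edgeR adjusted p = 0.0197) and without cac-1 replicate 3 or double-knockout replicate 2, with a range of 0.0197 to 0.333.

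Levels were then compared per length. The median gene of the windows stood at 7.46 RPKM in the double knockout and 5.52 RPKM in cac-1, and the median of all 9757 genes at 11.9 RPKM in the double knockout and 11.3 RPKM in cac-1. Under 1 RPKM were 9 of the 92 genes in the double knockout (9.78%) and 18 in cac-1 (19.6%), where 9.62% of all genes were that low in the double knockout and 11.98% in cac-1. Of the 18 genes under 1 RPKM in cac-1, 11 lay at the left end and 7 at the right end. Genes at 10 RPKM or more in cac-1 could all be tested. Among them 5 of 18 were higher at each end (27.8%), where 14.5% of all genes at that level were higher. Lower were 3 of 18 at the left end and 0 at the right end, and 847 of 5131 over all genes. From 1 to 10 RPKM, 6 of 19 tested genes were higher at the left end (31.6%) and 3 of 19 at the right end (15.8%), against 15.4% of all such genes. Under 1 RPKM, 4 of 6 tested genes were higher at the left end and 3 of 4 at the right end, against 34.4% of all such genes. The higher genes under 1 RPKM include NCU10501, NCU08074, NCU08079, NCU08639 and NCU10027, tested only through the double knockout. NCU11134, also tested only in that way and under 1 RPKM, was not called.

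**Figure D4:**
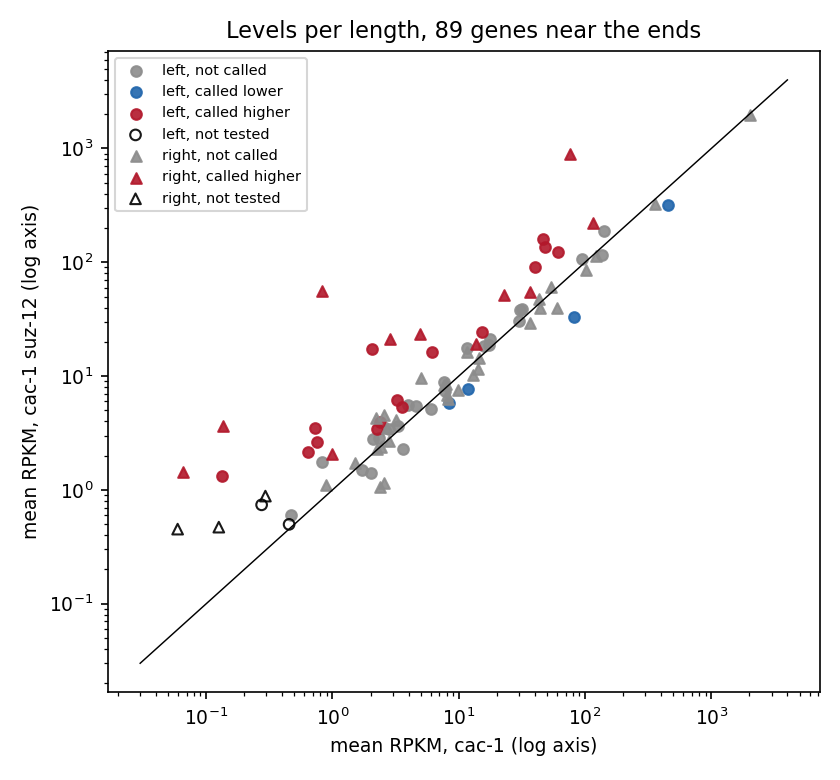
Mean RPKM of 89 genes near the ends in cac-1 suz-12 (vertical) against cac-1 (horizontal), both on log axes, with a line of equal level. Circles are left-end and triangles right-end genes, filled red where called higher, blue where called lower and grey where not called, and open where not tested, while 3 genes with 0 counts in every cac-1 library are not drawn. The triangles farthest above the line are NCU08630, NCU10027, NCU08639 and NCU10031.

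At the bottom of the range, 4 of the 92 genes had 3 counts or fewer in every cac-1 library (NCU08059, NCU08080, NCU08081 and NCU08623). In the double knockout these 4 had between 0 and 8 counts per library. None passed the filter, so a change was not detectable at this depth. The 3 counts correspond to 0.351 CPM in the shallowest library, cac-1 replicate 1. Such limits cover counting error only.

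The windows were last set beside other regions. In the rest of linkage group I 240 of 2145 tested genes were higher (11.2%) and 287 lower (13.4%), with a median of -0.062 on the log2 scale. Within 200 kb of the ends of the other 6 linkage groups 240 of 614 were higher (39.1%) and 27 lower (4.40%), with a median of 0.37. Taken singly, those 12 ends ran from 12.8% higher at the left end of linkage group V to 63.3% at the right end of linkage group III. Both ends of linkage group I, at 34.9% and 26.8%, lay inside that range. These differences were not tested.

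The median counted length was 1270.5 bases in the windows and 1269 bases over all genes, and 44 of the 92 lay on the plus strand. A single counted interval made up 18 of 48 left-end genes (37.5%), 7 of 44 right-end genes (15.9%) and 21.2% of all genes. No counted span of the 92 overlapped that of another gene.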

How the data were processed

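The deposited table holds raw counts per gene, and per the file headers each column comes from 1 coordinate-sorted alignment, so replicates were not pooled. The submitters' processing notes name Trim Galore 0.6.10, STAR 2.7.11, SAMtools 1.21, Subread 2.0.6 and featureCounts. The genome build and the strand setting are not given in the sources used here. Coordinates are those of the table. The 9723 identifiers that matched the RefSeq table of assembly NC12 all had their span inside the RefSeq gene. Gene lengths are the authors' deposited lengths, 98.8% of them multiples of 3 (coding length). Another 36 count columns matched no sample and were not used. Of counts from 1 to 20, 80.9% were even, so a count may not be 1 fragment.

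The double knockout was compared with cac-1 in edgeR 4.0.16 (R 4.3.3), with filterByExpr at its defaults, TMM scaling, a robust quasi-likelihood F test, no replicate block, and Benjamini-Hochberg adjustment over the 9148 genes tested. SE is the log2 fold change divided by the root of F. CPM uses TMM-scaled totals, and log2 CPM a prior count of 2. Replicates of a strain differed beyond counting noise (chi-square per degree of freedom 23.2 to 107). The fit was tested on simulated data.

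Genes named by rule were, per end, the 3 outermost, the 5 largest rises and 3 largest falls among calls without overlap at an average log2 CPM of 2 or more, the 2 highest per length in cac-1, the smallest p, and those with symbols. The right end had 0 falls to name. Symbols of other families were matched by their first letters. The genes and lists were chosen with earlier results of these data known. Alternatives were other scalings, filters, DESeq2 1.42.0, halved counts, a replicate block, leaving out each library, stricter calls and other distances. Reads shared with near-identical copies were not examined.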

Additional observations from a re-analysis of the deposited data

How the results depend on the processing

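The replicate block gave 29 higher and 4 lower genes near the ends (17 and 12 higher at the left and right end), and of the 33 called, 30 were shared with the 30 calls without it. Calls over all 9148 genes tested also grew with the block, to 1683 higher and 1326 lower, from 1476 and 1093 without it. Deviations of libraries with the same number correlated at -0.015, 0.097 and 0.17, and not every library correlated best with its own number, so the numbers were not taken as pairs.

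On library totals there were 8 lower genes, 3 of them at the right end, medians of 0.13 (left) and -0.076 (right), and log2 ratios of summed levels of 0.18 and 0.28, against 0.39 and 0.48 in the chosen scaling. The median over all genes was -0.20 on library totals, with 1861 of 9148 genes tested called lower. Upper-quartile scaling gave 1 lower gene, a median of 0.051 and a log2 ratio of summed levels of 0.41 at the right end. With no filter the right end had 1 lower gene and a median of 0.19, and with DESeq2 1 and 0.18. Over all genes tested, upper-quartile scaling called 1410 lower, no filter 1097 and DESeq2 1185, against 1093 in the chosen fit. The cause was not tested. At an adjusted p of 0.01, 17 genes were higher (9 left) and 1 lower (left), and at 2-fold or more 17 were higher (7 right) and 1 lower (left), as stricter calls must be fewer. By 2-fold or more, 8.46% of all genes tested were higher and 2.89% lower.

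Within 100 kb, which holds fewer genes, 15 were higher (8 left, 7 right) and 0 lower at either end. None was at the floor (0), the medians were 0.89 and 1.71, and the log2 ratios of summed levels 0.97 and 1.91. Within 300 kb 40 were higher (27 left), 7 lower (1 right) and 10 at the floor. The calls at these distances are those of the chosen fit, in which 16.1% of all genes tested were higher and 11.9% lower. The left median was 0.51 and the left log2 ratio 0.26. A floor of 10 counts held 11 genes. Without the most abundant gene the log2 ratios were 0.57 and 0.75. Without the gene of largest rise in CPM (NCU09906 left, NCU10031 right, chosen after seeing the data) they were 0.19 and 0.065. With the 3 symbols of other families kept in, the right log2 ratio was 0.36.

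With each library left out singly there were 18 to 24 higher genes (10 to 13 left, 8 to 12 right), 1 to 5 lower (1 to 3 left, 0 to 2 right), 4 to 6 at the floor, and medians from 0.29 to 0.41 (left) and from 0.079 to 0.20 (right). Over all genes tested the same fits called 1129 to 1535 higher and 650 to 1139 lower, against 1476 and 1093 with all libraries. With fewer samples these fits have less power.

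Of 311 values for the named genes under alternatives, 271 stayed on the same side of the threshold with the same sign, 26 lost a call, 10 gained one and 4 changed sign, these last for genes without a call. For NCU09901 the value was -0.014 on library totals. For un-18 they ran from -0.25 to 0.35, above 0 without cac-1 replicate 2 or double-knockout replicate 3. For NCU08620 they ran from -0.13 to 0.025 over the fits without 1 library, above 0 without double-knockout replicate 3. What made these signs change was not tested. Depth limits low genes most in cac-1 replicate 1.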

Other observations

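The 3 genes of the windows with symbols of other families were 1 that rose and 2 without a call. The glycoside hydrolase gene gh3-2, at the left end, stood at 106 ± 17.9 CPM in the double knockout and 60.1 ± 7.21 CPM in cac-1 (SD, n = 3 each), which is a log2 fold change of 0.82 (edgeR adjusted p = 0.00134, SE 0.16). It lies between the lower gene NCU08055 and NCU08053, which was not called (0.17 on the log2 scale). The ribosomal protein gene crp-7, at the right end, stood at 1520 ± 67.0 CPM in the double knockout and 1382 ± 88.3 CPM in cac-1 (SD, n = 3 each, edgeR adjusted p = 0.537). The gene cyt-21 stood at 17.4 ± 0.367 CPM in the double knockout and 21.8 ± 2.06 CPM in cac-1 (SD, n = 3 each, edgeR adjusted p = 0.142).

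Beyond the right window, 300 to 350 kb from the end, a pair of neighbours was lower. The conidiation gene con-8 and its neighbour NCU09236 formed the run with the largest fall within 400 kb of either end, with a median of -1.94 on the log2 scale. Beyond the left window the neighbours NCU08084, NCU08085 and NCU08086 were higher by a median of 5.22 on the log2 scale.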
